A study of Mus musculus with 6 samples.

Results

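The genes described here encode the machinery of N6-methyladenosine (m6A), the most abundant internal modification of mRNA, in mouse oocytes. They were the 10 genes of the deposited table with the names Mettl3, Mettl14, Wtap, Alkbh5, Ythdf1, Ythdf2, Ythdf3, Ythdc1, Ythdc2 and Igf2bp2, out of 22416 genes in all. Every one of the 10 was found and passed the filter on low values, which asked for a mean over the 6 libraries of 1 FPKM or more, as did 15127 genes of the table. FPKM is the number of footprint reads per kilobase of coding sequence, scaled to the reads of the library, so every level below is per length and says nothing of the total amount of footprints in a library.

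m6A is placed on mRNA in the nucleus by a writer complex, in which METTL3 is the catalytic subunit, METTL14 holds the RNA substrate and WTAP recruits the pair to nuclear speckles. ALKBH5 is an eraser, a demethylase. Readers then bind the mark: YTHDC1 acts in the nucleus in splicing and export, YTHDF1, YTHDF2 and YTHDF3 act in the cytoplasm in mRNA translation and decay, and YTHDC2 is a helicase needed for germ cells to enter meiosis. IGF2BP2 is an RNA-binding protein that has been described as an m6A reader that stabilizes its targets. Fully grown oocytes are transcriptionally silent, and meiotic maturation runs on stored mRNA whose translation is switched on or off.

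Ribosome footprints, the mRNA fragments that a translating ribosome protects from nuclease, were measured with Ribo-lite, which adapts ribosome profiling to low cell input, from 500 oocytes per library. Oocytes were wild type (WT), with a C57BL/6 background per the study's methods, and came from females of 4 weeks that had received 5 IU of pregnant mare serum gonadotropin (PMSG) 44 h earlier. The 3 groups had 2 libraries each: oocytes at full size that still held the germinal vesicle, or GV (WT_FGO, treatment label Control), oocytes at metaphase II (WT_MII, treatment label Control) and oocytes at metaphase II labelled Treat (Treat_MII). In the study's methods GV oocytes were matured in culture, the treatment is BYBX, a ligand that stabilizes RNA G-quadruplexes, and the solvent is DMSO. The labels do not tie a library to particular mice, so p-values measure the spread between these libraries, which may be technical. The comparison of WT_MII with WT_FGO addresses maturation, and that of Treat_MII with WT_MII addresses the ligand.

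The libraries held between 94309 and 331304 recovered footprint reads, with the WT_FGO libraries the shallowest (94309 and 107251). The 10 genes took 41 and 79 reads in WT_FGO, 287 and 373 in WT_MII, and 575 and 496 in Treat_MII. Of 12 oocyte markers, 11 or 12 were above 0 in each library. Of 14 granulosa and cumulus cell markers, 6 to 10 were above 0, with summed levels of 869 and 1648 FPKM in WT_FGO, then 2233 and 427 FPKM in WT_MII, and then 326 and 355 FPKM in Treat_MII. Of the markers of expanded cumulus, Tnfaip6 was at 0 in all libraries. Ptgs2, Has2 and Ptx3 had no read in WT_FGO and at most 2 reads in each metaphase II group. Ptgs2 was above 0 in both WT_MII libraries (3.35 and 2.39 FPKM) and Has2 in both Treat_MII libraries (1.82 to 2.19 FPKM). In WT_FGO replicate 2, 5 of the 14 were higher than in replicate 1 (Inha at 747 against 29.0 FPKM, Amh at 196 against 57.4 FPKM), 4 were lower (Hsd17b1 at 488 against 729.5 FPKM) and 5 were at 0 in both. Fewer transcripts and fewer ribosomes per transcript cannot be told apart in footprints alone.

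Since the ligand binds G-quadruplexes, the annotated transcripts of the 10 genes were searched on the mRNA strand for 4 runs of at least 3 G with 1 to 7 bases between runs. Alkbh5 and Igf2bp2 held the motif in the 5′-UTR, and Alkbh5 also held it in the 3′-UTR. The motif was in the 5′-UTR of 7.02% of 14792 tested genes with a transcript, in the 3′-UTR of 10.5% and in the coding sequence of 4.52%, and none of the 10 genes held it in the coding sequence. The matches are shown because these genes are the ones of the 10 in whose searched transcript the ligand's target motif can be read. Runs of G are in capitals (GRCm38, mRNA strand 5′ to 3′).
Igf2bp2 5′-UTR, chr16:22163053-22163073, minus strand: GGGcgaGGGtGGGGGcGGGGG
Igf2bp2 5′-UTR, chr16:22162990-22163015, minus strand: GGGagcgccGGGtgccGGGccGGGGG
Alkbh5 5′-UTR, chr11:60538091-60538113, plus strand: GGGccGGGccGGGcgtctgaGGG
Alkbh5 3′-UTR, chr11:60555426-60555447, plus strand: GGGGccGGGcctGGGGGctGGG
Ythdf3 and Ythdc1 held no match, although the annotated transcript of Ythdc1 used here has no 5′-UTR, so that region could not be searched. A match of letters does not show that the structure forms.

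During maturation the 10 genes did not change in 1 direction. Ythdf3 and Ythdc1 rose and Alkbh5 fell, each with an adjusted p under 0.05 (limma, Benjamini-Hochberg over 15127 genes), and the other 7 did not pass the test. Among all tested genes 3.67% were called higher and 3.09% lower in WT_MII. The median log2 change of the 10 genes was 0.46, beside -0.44 over all tested genes. It was the same with Alkbh5 set to the change that 3 reads per WT_MII library would give.

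**Figure D1:**
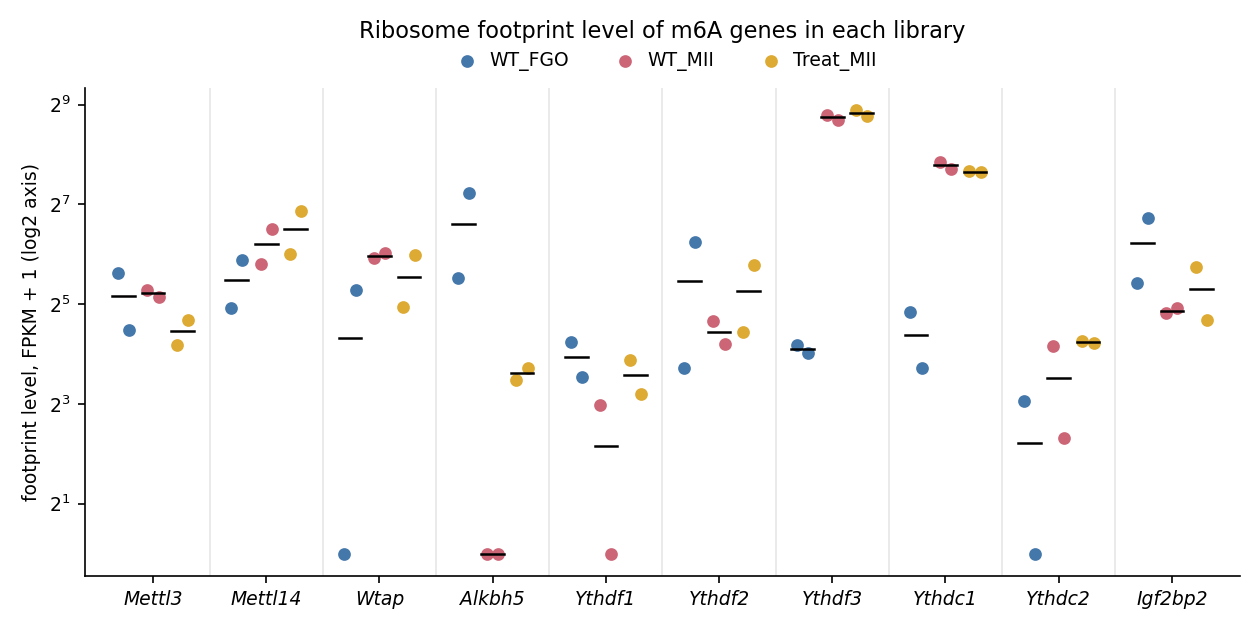
Footprint level of each gene in each of the 6 libraries, as FPKM + 1 on a log2 axis; points are libraries, colours are groups and black bars are the mean FPKM of the 2 libraries. Ythdf3 and Ythdc1 lie between 12.2 and 27.7 FPKM in WT_FGO and at 201 FPKM or more in all metaphase II libraries, and Alkbh5 is at 0 in both WT_MII libraries.

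Ythdf3 (chr3:16183212-16217037, plus strand) had the largest footprint level of the 10 genes at metaphase II. Its level was 17.2 and 15.1 FPKM in the WT_FGO libraries (3 reads each), 443 and 415 FPKM in WT_MII (135 and 177 reads) and then 472 and 438 FPKM in Treat_MII (289 and 223 reads). Both WT_FGO libraries lay far below all 4 metaphase II libraries, which lay close together. The log2 change of (FPKM + 1) in maturation was 4.65 ± 0.32 (SE, n = 2 against 2, limma adjusted p = 0.00194). In summed reads over library size the ratio was 26.5, with a 95% counting interval of 12.03 to 72.7 set mainly by the 6 reads of WT_FGO. Among tested genes Ythdf3 moved from the 66.2 and 59.4 percentiles of footprint level in WT_FGO to the 98.4 and 98.1 percentiles in WT_MII.

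Ythdc1 (chr5:86804221-86836659, plus strand), the nuclear reader, rose as well. Its level was 27.7 and 12.2 FPKM in WT_FGO (6 and 3 reads), then 230.0 and 209.6 FPKM in WT_MII (87 and 111 reads), and then 201 and 201 FPKM in Treat_MII (153 and 127 reads). The groups did not overlap, and WT_MII stood 11.2-fold above WT_FGO in summed reads (95% counting interval 5.78 to 24.9). The log2 change was 3.50 ± 0.48 (SE, n = 2 against 2, limma adjusted p = 0.0142). Without WT_MII replicate 1 or 2 the adjusted p was 0.102 or 0.0905, and with no trend in the prior variance it was 0.0691. Of the 28-base words in its coding sequence, 28.1% also occur in the annotated genes Gm43055 and Gm43295, so its level is uncertain where the counting could split reads.

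The other cytoplasmic YTH readers did not pass the test. Ythdf2 (chr4:132184912-132212303, minus strand) was at 12.1 and 74.4 FPKM in WT_FGO (2 and 14 reads), against 24.2 and 17.3 FPKM in WT_MII (7 reads each). The WT_FGO libraries lay on either side of both WT_MII libraries, and without WT_FGO replicate 2 the log2 change went from -0.55 to 0.71. Ythdf1 (chr2:180904377-180920949, minus strand) was at 18.03 and 10.6 FPKM in WT_FGO, against 6.87 and 0 FPKM in WT_MII, on 5 reads and 2 reads in all (log2 change -2.40 ± 1.18, limma adjusted p = 0.308). Part of the Ythdf2 coding sequence (37.7% of its 28-base words) also occurs in Gm6823 and Gm8401.

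The 3 YTHDF genes have coding sequences of nearly equal length (1764, 1754 and 1849 bases), so their reads were set against each other without a correction for length. Of the 28-base coding words of Ythdf2, 37.7% occur in other genes, so its reads and these shares are uncertain where the counting could split reads. In WT_FGO replicate 1 Ythdf3 took 3 of 8 YTHDF reads (37.5%, exact Clopper-Pearson 95% interval 8.52 to 75.5%) and in replicate 2 it took 3 of 19 (15.8%, 3.38 to 39.6%). In WT_MII it took 135 of 144 (93.8%, 88.5 to 97.1%) and 177 of 184 (96.2%, 92.3 to 98.5%). In Treat_MII it took 289 of 309 (93.5%, 90.2 to 96.0%) and 223 of 253 (88.1%, 83.5 to 91.9%). The intervals of the WT_FGO libraries did not reach those of any metaphase II library. With 2 libraries against 2 an exact permutation test cannot give a two-sided p below 0.333, so no test was made on these shares.

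**Figure D2:**
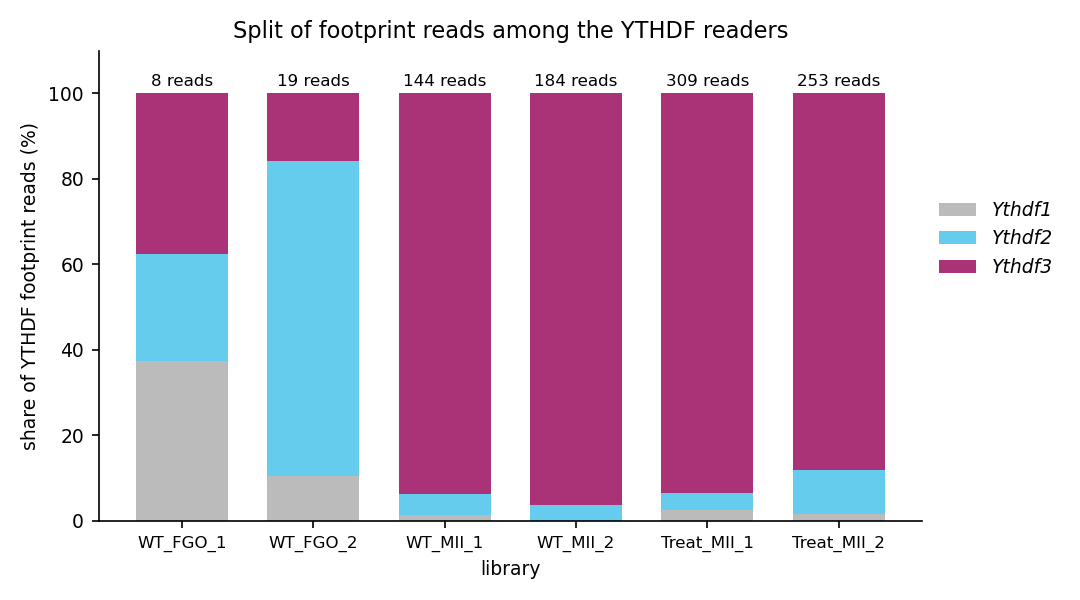
Share of the footprint reads of Ythdf1, Ythdf2 and Ythdf3 (percent, stacked to 100) in each library, with the number of YTHDF reads above each bar. Ythdf3 takes 15.8 to 37.5% in the WT_FGO libraries and 88.1 to 96.2% in the 4 metaphase II libraries.

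Ythdc2, the meiotic helicase, had few reads in every library. It was at 7.34 and 0 FPKM in WT_FGO (3 and 0 reads), then 16.8 and 4.00 FPKM in WT_MII (12 and 4 reads), and then 18.1 and 17.6 FPKM in Treat_MII (26 and 21 reads). The WT_FGO and WT_MII ranges overlapped (log2 change 1.71 ± 1.27, limma adjusted p = 0.490).

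Alkbh5 (chr11:60536381-60558512, plus strand), the eraser, was the 1 gene of the 10 called lower. It was at 44.7 and 149 FPKM in WT_FGO (5 and 19 reads) and had no read in either WT_MII library. In Treat_MII it was at 10.2 and 12.2 FPKM (4 reads each). WT_FGO was highest, Treat_MII intermediate and WT_MII at 0, with no overlap between any pair of groups. The WT_FGO mean of 97.1 FPKM was 7.38-fold the level that 3 reads per library would give in WT_MII. That ratio is no lower bound, as it leaves out the spread and counting error of WT_FGO, where replicate 1 was at 44.7 FPKM. The change of log2(FPKM + 1), whose size depends here on the added 1, passed the test (limma adjusted p = 0.0138). The higher WT_FGO library is replicate 2, which also had the larger summed granulosa and cumulus marker level (1648 against 869 FPKM), whose part in the result was not tested. Without that library the adjusted p was 0.0310, and without WT_MII replicate 1 or 2 it was 0.0831 or 0.0752.

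**Figure D3:**
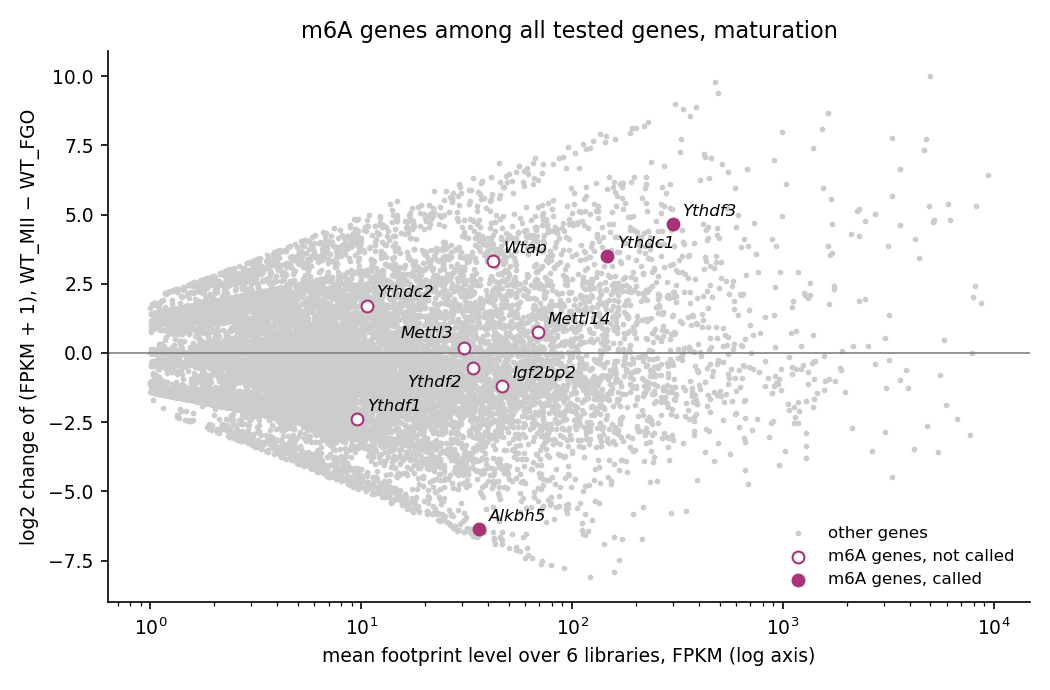
Log2 change of (FPKM + 1), WT_MII minus WT_FGO, against the mean FPKM over the 6 libraries (log axis) for 15127 tested genes in grey and the 10 m6A genes in purple, filled where the limma adjusted p was under 0.05. Ythdf3 (4.65) and Ythdc1 (3.50) lie in the upper part and Alkbh5 at the lower edge, where genes with no read in WT_MII lie.

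Of the writers, none passed the test in maturation. Mettl3 (chr14:52294841-52305128, minus strand), the catalytic subunit, was at 48.3 and 21.2 FPKM in WT_FGO (8 and 4 reads), against 38.0 and 34.5 FPKM in WT_MII (11 and 14 reads). The WT_MII libraries lay inside the WT_FGO range (log2 change 0.17 ± 0.61, 95% interval -1.33 to 1.66). Mettl14 (chr3:123368297-123386108, minus strand) was at 29.5 and 58.3 FPKM in WT_FGO, against 54.8 and 90.3 FPKM in WT_MII (log2 change 0.75 ± 0.58, 95% interval -0.67 to 2.16). The groups overlapped by a little.

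Wtap (chr17:12966796-12994169, minus strand) was at 0 and 38.1 FPKM in WT_FGO (0 and 5 reads), against 59.5 and 63.7 FPKM in WT_MII (12 and 18 reads). Both WT_MII libraries exceeded both WT_FGO libraries, which differed widely (log2 change 3.32 ± 1.63, limma adjusted p = 0.309). Without WT_FGO replicate 2 the change was 5.97 with an adjusted p of 0.0294, and without replicate 1 it was 0.68, so the value rests on which WT_FGO library is used. Of its 28-base coding words, 48.2% also occur in AC122453.2, Gm14292, Gm7381 or Gm9068.

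Igf2bp2 (chr16:22059009-22163299, minus strand) was at 41.8 and 105 FPKM in WT_FGO (7 and 20 reads), then 27.3 and 29.3 FPKM in WT_MII (8 and 12 reads), and then 52.7 and 24.5 FPKM in Treat_MII (31 and 12 reads). Both WT_FGO libraries were above both WT_MII libraries, but the log2 change of -1.20 ± 0.66 did not pass the test (limma adjusted p = 0.375). The ratio of summed reads, WT_MII over WT_FGO, was 0.377 (95% counting interval 0.201 to 0.698, which leaves out the spread between libraries). Here too the higher WT_FGO library was replicate 2, and without it the log2 change was -0.55.

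In all, 3 of the 10 genes were higher in both WT_MII libraries than in both WT_FGO libraries and 3 were lower, beside 15.3% and 25.8% of all tested genes. Relative to the median gene the changes were somewhat larger upward. With each library centred on its median log2 ratio, Ythdf3 changed by 5.11, Ythdc1 by 3.97 and Alkbh5 by -5.91. All 3 still had a limma adjusted p under 0.05. Alkbh5 had no read in WT_MII, so the size of its change depends on the added 1 FPKM. Over all genes, centring turned the split from 555 higher and 468 lower to 758 higher and 305 lower. The calls needed the spread of all 3 groups: in a fit of WT_FGO and WT_MII alone, and in fits without either Treat_MII library, none of the 15127 genes and none of the 10 passed, with an adjusted p for Ythdf3 of 0.116, 0.0931 and 0.0954.

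The order of the 10 genes by level differed between stages. In WT_FGO the highest mean levels were those of Alkbh5 (97.1 FPKM) and Igf2bp2 (73.4 FPKM), and each gene's range overlapped that of the next one down to Ythdf1, with Ythdc2 below. In WT_MII Ythdf3 (429 FPKM) and Ythdc1 (220 ± 14.4 FPKM, SD, n = 2) stood apart from each other and from Mettl14 (72.5 FPKM), whose range overlapped that of Wtap (61.6 FPKM). Mettl3 (36.2 FPKM), Igf2bp2 (28.3 FPKM) and Ythdf2 (20.7 FPKM) followed without overlap, and Ythdc2, Ythdf1 and Alkbh5 were last. In Treat_MII the first 4 were again Ythdf3, Ythdc1, Mettl14 and Wtap. Together Ythdf3 and Ythdc1 took 22.0% and 7.59% of the reads of the 10 genes in WT_FGO, 77.4% and 77.2% in WT_MII and 76.9% and 70.6% in Treat_MII.

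No gene passed the test between Treat_MII and WT_MII, among the 10 or among all 15127 tested (0% called in either direction, with 882 genes at an unadjusted limma p under 0.05, 1 of them among the 10). The count over all genes depended on single libraries: without WT_MII replicate 1 or 2 it was 17 higher and 347 lower or 31 higher and 387 lower, and without Treat_MII replicate 1 or 2 it was 363 or 398 higher and none lower, while none of the 10 was called in any of these fits. The genes with most reads had the narrowest intervals. The log2 change of Ythdf3 was 0.08 ± 0.32 (95% interval -0.69 to 0.86) and turned to -0.0300 with libraries centred on the median ratio. That of Ythdc1 was -0.13 ± 0.48 (95% interval -1.29 to 1.04). In summed reads the Treat_MII over WT_MII ratio was 1.07 for Ythdf3 (95% counting interval 0.928 to 1.24) and 0.922 for Ythdc1 (0.766 to 1.11).

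**Figure D4:**
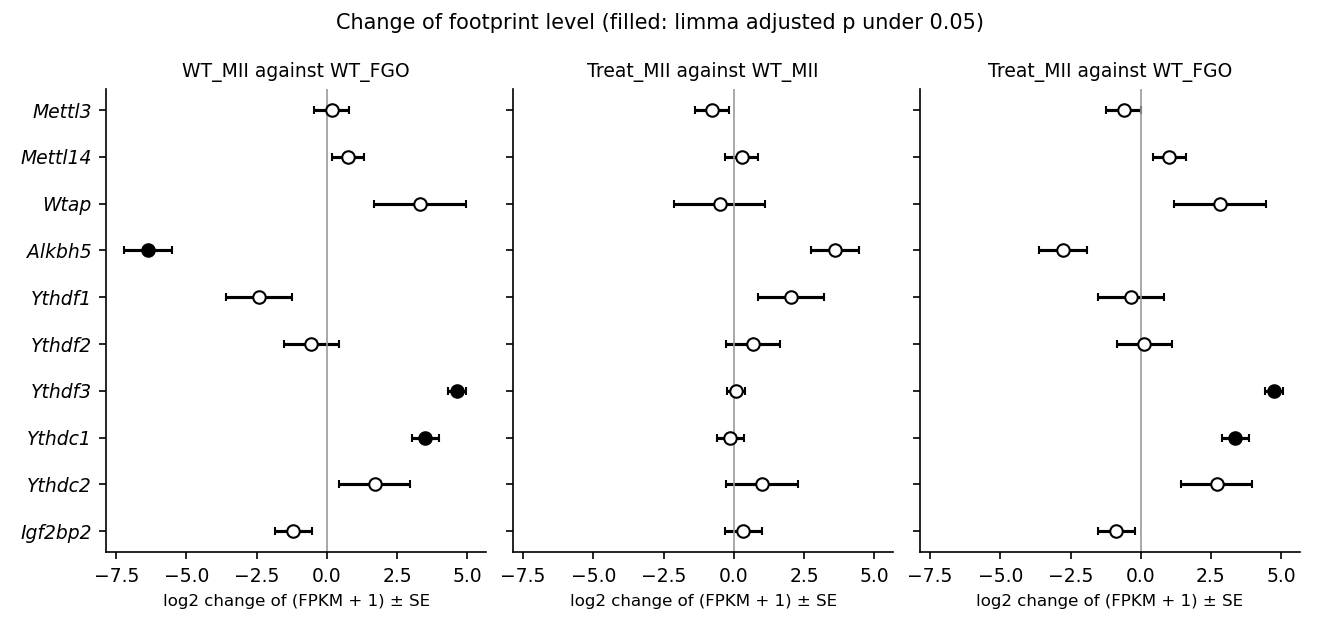
Log2 change of (FPKM + 1) with its standard error for each gene in the 3 comparisons (n = 2 libraries per group); filled points have a limma adjusted p under 0.05. Ythdf3 and Ythdc1 are filled in both comparisons with WT_FGO and lie near 0 between Treat_MII and WT_MII, where no point is filled.

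Of the genes with the G-quadruplex motif in the 5′-UTR, Alkbh5 had 8 reads in Treat_MII and 0 in WT_MII, with an unadjusted p of 0.00553 and an adjusted p of 0.709 (limma, n = 2 against 2). Its mean of 11.2 FPKM in Treat_MII lay under the level that 3 reads would give in WT_MII, so no fold is given. Igf2bp2 changed by 0.34 ± 0.66 on the log2 scale (95% interval -1.27 to 1.95), with the Treat_MII libraries at 52.7 and 24.5 FPKM on either side of WT_MII. Among the genes without the motif, Ythdc2 was higher in both Treat_MII libraries than in WT_MII (1.92-fold in summed reads, 95% counting interval 1.07 to 3.62, log2 change 0.999 ± 1.27), and so was Ythdf1 (8 and 4 reads against 2 and 0).

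Mettl3 was at 17.2 and 24.8 FPKM in Treat_MII, below both WT_MII libraries (log2 change -0.78 ± 0.61, 95% interval -2.28 to 0.72). Mettl14 was at 62.9 and 116 FPKM in Treat_MII (log2 change 0.28 ± 0.58), Wtap at 29.6 and 62.3 FPKM (-0.51 ± 1.63) and Ythdf2 at 20.7 and 53.8 FPKM (0.68 ± 0.97), each with ranges that overlapped those of WT_MII. In all, 3 of the 10 genes were higher in both Treat_MII libraries and 2 were lower, beside 16.2% and 15.6% of all tested genes. For 8 of the 10 genes, all but Alkbh5 and Ythdf3, a change of 2-fold lay inside the 95% interval and so was not excluded by these libraries. The interval of Ythdf3 lay within 2-fold in both directions. That of Alkbh5 lay above 2-fold (log2 1.51 to 5.70), but it depends on the added 1 FPKM, as WT_MII had no read.

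The same WT_FGO libraries were also set against Treat_MII, which had Ythdf3 higher by 4.73 ± 0.32 (limma adjusted p = 0.00203) and Ythdc1 higher by 3.38 ± 0.48 (adjusted p = 0.0201) on the log2 scale, with 2.86% of all tested genes called higher. Alkbh5 was at 11.2 FPKM in Treat_MII beside 97.1 FPKM in WT_FGO, 9.03-fold lower in summed reads (95% counting interval 3.93 to 23.3), and did not pass the test (log2 change -2.77 ± 0.86, adjusted p = 0.153). The other 7 genes did not pass it either.

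The remaining genes of the m6A pathway, 19 in a list of writer subunits, other methyltransferases, the eraser Fto and further readers, were measured beside them, and 18 passed the filter. In maturation 1 of the 18 was called higher (3.67% of all genes) and none lower, with a median log2 change of 0.71. It was Zc3h13, which anchors the writer complex in the nucleus, at 10.2 and 14.4 FPKM in WT_FGO, then 146 and 99.3 FPKM in WT_MII, and then 130 and 110 FPKM in Treat_MII. Its log2 change was 3.21 ± 0.46 (limma adjusted p = 0.0161), or 9.56-fold in summed reads (95% counting interval 5.48 to 18.2), and without WT_MII replicate 1 the adjusted p was 0.0514. Both WT_FGO libraries lay below all metaphase II libraries.

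Of the 18 genes, 4 were higher in both WT_MII libraries than in both WT_FGO libraries and 2 were lower, beside 15.3% and 25.8% of all tested genes. Of the other writer subunits in the list, 2 were among the 4 and did not pass the test. Virma, the scaffold subunit, was at 45.3 and 44.9 FPKM in WT_FGO, against 116 and 85.6 FPKM in WT_MII (log2 change 1.12 ± 0.40, limma adjusted p = 0.166). Rbm15, which directs the complex to its RNA targets, was at 14.7 and 12.9 FPKM and then 60.9 and 52.5 FPKM (1.96 ± 0.52, adjusted p = 0.0854). With quantile normalization Rbm15 passed (adjusted p = 0.0455). Cbll1, a ubiquitin ligase bound to the complex, overlapped (14.4 and 12.7 FPKM in WT_FGO, against 4.12 and 32.3 FPKM in WT_MII), and Rbm15b, a paralog of Rbm15, had 0 and 3 reads in WT_FGO and none in WT_MII; both were named after their values were seen. Whether these changes differed from that of Mettl3 was not tested.

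**Figure D5:**
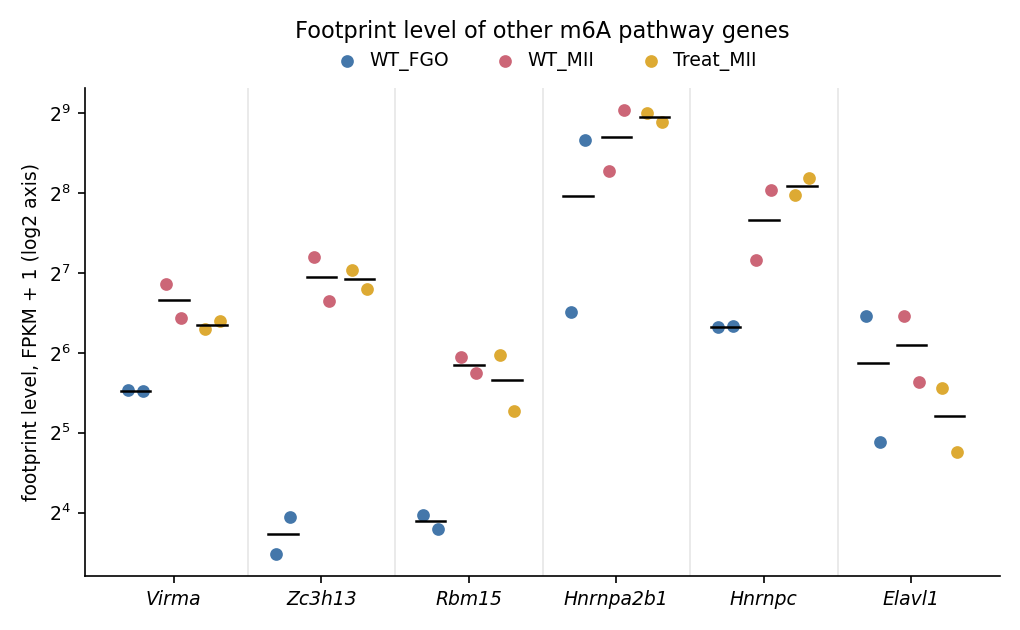
Footprint level (FPKM + 1, log2 axis) of 6 further m6A pathway genes in each library; points are libraries, colours are groups and black bars are the mean FPKM of the 2 libraries. Zc3h13, Virma, Rbm15 and Hnrnpc are lower in both WT_FGO libraries than in all metaphase II libraries.

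Among the nuclear and cytoplasmic RNA-binding proteins of the list, Hnrnpc was at 79.0 and 79.4 FPKM in WT_FGO, against 142 and 263 FPKM in WT_MII (log2 change 1.28 ± 0.40, limma adjusted p = 0.125). Hnrnpa2b1 was at 90.1 and 405 FPKM in WT_FGO, against 309 and 523 FPKM in WT_MII (1.07 ± 0.70), and Elavl1, an mRNA-stabilizing protein, was at 86.7 and 28.6 FPKM and then 86.8 and 48.7 FPKM (0.37 ± 0.70). Between Treat_MII and WT_MII none of the 18 passed the test at an adjusted or an unadjusted p under 0.05. Against WT_FGO, Treat_MII had the single call of Zc3h13 (log2 change 3.20 ± 0.46, adjusted p = 0.0205).

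The genes whose pattern over the 6 libraries was most like that of Ythdf3, by Pearson correlation of log2(FPKM + 1) among 2705 genes with at least 60 reads, were Mcm4 (r = 0.9998), Lrrc40 (r = 0.9998) and Cmtr2 (r = 0.9996). These are descriptions over 6 libraries that fall into 3 groups. Mcm4, a subunit of the replicative helicase, was at 8.17 and 7.18 FPKM in WT_FGO and between 207 and 252 FPKM in the metaphase II libraries.

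The 3′-UTRs were also read for the cytoplasmic polyadenylation element, a motif that recruits CPEB proteins to stored oocyte mRNAs, as TTTTAT or TTTTAAT on the mRNA strand. It occurred in the 3′-UTR of 8 of the 10 genes, beside 54.7% of tested genes. These shares were not matched for length, and a short motif occurs more often in a longer 3′-UTR. The 3′-UTRs of the 10 ran from 141 to 4097 bases, beside a median of 857 bases over tested genes. Ythdf3 held 10 copies in a 3′-UTR of 2877 bases, Wtap 6 in 672 bases and Ythdc1 2 in 749 bases. Ythdf2 held 3 in 2012 bases, Ythdc2 3 in 1936 bases and Igf2bp2 2 in 1784 bases. Alkbh5 held 1 in 4097 bases and Mettl14 1 in 1089 bases. Mettl3 and Ythdf1, with short 3′-UTRs of 141 and 272 bases, held none. Whether the copies go with the footprint changes was not tested. Within the last 100 bases, where the element acts near the polyadenylation signal, Mettl14 and Wtap held it, beside 17.5% of tested genes.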

How the data were processed

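Ribosome footprints were measured in 6 Ribo-lite libraries of mouse oocytes. The authors deposited FPKM values per gene and library on mm10, with cutadapt 1.14, Bowtie2 2.2.2 and STAR 2.5.3a in the submitters' processing notes. The counting program and annotation are not given in the sources used here, nor is any spike-in scaling. Later rows of a gene name already seen, 26 in all, were dropped, and 22416 genes remained.

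FPKM multiplied by coding length (GENCODE M21) and divided by a constant per library gave whole reads, within 0.02, for 21593 of 21937 genes with a coding length (97.9% of those with a value above 0). Reads were used for depth, counting intervals (95%, exact) and floors (3 reads). These cover counting error only, since PCR copies are not independent molecules.

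log2(FPKM + 1) of the 15127 genes that averaged 1 FPKM or more was fitted in limma 3.58.1 (R 4.3.3) over all 3 groups with a trended prior. The p-values were adjusted by Benjamini-Hochberg. The fit was tried on simulated reads that had the same spread for all genes and groups. That trial cannot tell how the fit fares where spread differs between groups. The added 1 FPKM shrinks fold changes of low genes that have reads in every library. Where a library had no read, the log2 change depends on the added 1, and the fold it stands for can exceed the ratio of reads. For Wtap in maturation the log2 change was 3.32, beside a ratio of 3.05 in summed reads that is not on the log2 scale. The log2 value thus stands for a larger fold than the reads give. All 10 genes were named. Of the other lists, those called and the 6 (m6A pathway) or 4 (other modifications) with the highest mean FPKM were named, with the 3 genes most like the gene of highest mean. The genes and lists were chosen with earlier results of these data known. Alternatives were another pseudocount, filters, scalings, the replicate block, compared groups only, no trend, precision weights and each library left out. Motifs were searched in 1 GENCODE M21 transcript per gene, that with the longest coding sequence (GRCm38).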

Additional observations from a re-analysis of the deposited data

How the results depend on the processing

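The calls rest on 2 libraries per group and on few WT_FGO reads. The count of the 10 genes called in maturation was 3, was 0 with only the compared groups, and ranged from 0 to 4 when each library was left out. It was 0 without either Treat_MII library 1 without either WT_MII library and 4, with Wtap added, without WT_FGO replicate 2. In Treat_MII against WT_FGO it was 2, then 1 with only the compared groups, 0 with no trend and 1 to 3 with a library left out (1 without any single metaphase II library, 3, with Wtap added, without WT_FGO replicate 2). Of 18 other m6A genes 1 was called in maturation, 2 with quantile normalization, 0 with only the compared groups, 0 with no trend and 0 to 2 with a library left out. Against WT_FGO in Treat_MII 1 was called, 2 with centring, 2 with quantile normalization, 0 with only the compared groups, 0 with no trend and 0 to 2 with a library left out. In the treatment comparison none of the 10 or the 18 genes was called under any of these. Over all genes the treatment count was 0, also under all settings that kept both libraries of each metaphase II group, but 17 higher and 347 lower or 31 higher and 387 lower without WT_MII replicate 1 or 2, and 363 or 398 higher without Treat_MII replicate 1 or 2. Over all genes, maturation gave 555 higher and 468 lower calls, 188 and 140 with no trend, and 0 with only the compared groups. That last fit leaves out Treat_MII, whose libraries were the deepest and lend their spread to the fit over all 3 groups. The cause of the difference was not tested.

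Replicate numbers did not pair the libraries (correlations of deviations of 0.0342, 0.0176 and 0.0189 over 2706 genes), and with the replicate block 453 genes were higher and 335 lower, with the counts for the 10 genes still at 3, 0 and 2 and those for the 18 at 1, 0 and 1. Among single genes, the treatment change of Ythdf3 was -0.0300 with centring. The change of Ythdf1 in Treat_MII against WT_FGO was 0.38 with quantile normalization, and that of Nsun2 in maturation was 0.30 with centring and 0.44 with quantile normalization. With a library left out, signs turned in maturation for Hnrnpa2b1 (range -0.00974 to 2.15), Nsun2 (-0.69 to 0.37), Elavl1 (-0.41 to 1.16) and Mettl3 (range -0.41 to 0.74), for Ythdf2 in maturation (-1.81 to 0.71), in Treat_MII against WT_FGO for Ythdf2 (-1.13 to 1.40), Ythdf1 (-0.71 to 0.00882) and Elavl1 (-1.30 to 0.27), and in the treatment comparison for Mettl14 (-0.16 to 0.71), Wtap (-1.03 to 0.0168) and Igf2bp2 (-0.20 to 0.88). None of these was called.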

Other observations

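Genes of other mRNA modifications were read in the same libraries, 16 in the list and 15 above the filter. In maturation 3 were called higher and 1 lower, beside 3.67% and 3.09% of all tested genes. The median log2 change was 0.94, beside -0.44 over all tested genes, but it rests on genes with no read in 1 group. With 3 of these at their ratio to the level of 3 reads, and 5 without such a fold set to 0, it was 0. Cmtr2, which methylates the ribose of the second transcribed nucleotide next to the cap, had no read in WT_FGO, 86.9 and 88.5 FPKM in WT_MII, and then 102 and 93.0 FPKM in Treat_MII. Its mean in WT_MII was 6.75-fold the level that 3 reads per WT_FGO library would give (limma adjusted p = 0.00327). In Treat_MII it was 7.52-fold that level (limma adjusted p = 0.00354). Such ratios of a mean leave out the spread between libraries and counting error. Nsun6, a cytosine-5 RNA methyltransferase, had no read in WT_FGO and 7 and 9 reads in WT_MII. Its WT_MII mean was 1.36-fold the 3-read level in WT_FGO (limma adjusted p = 0.0264). Trmt10c, a mitochondrial tRNA methyltransferase, had none in WT_FGO and then 8 and 4 in WT_MII (limma adjusted p = 0.0408). Its WT_MII mean was 1.10-fold the 3-read level in WT_FGO. WT_MII replicate 2 alone, at 13.9 FPKM, lay below that level in both WT_FGO libraries (25.6 and 22.5 FPKM). For genes with no read in a group, the adjusted p belongs to the change of log2(FPKM + 1), not to the ratio to the 3-read level. Libraries at 0 add no spread to that test. Of 15 alternatives Nsun6 was called in 9 (adjusted p 0.0105 to 0.203) and Trmt10c in 6 (0.0202 to 0.213), and with the replicate block they were at 0.0505 and 0.0620.

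Alyref, an mRNA export factor that binds 5-methylcytosine, was at 139 and 280 FPKM in WT_FGO, then 23.8 and 34.0 FPKM in WT_MII, and then 55.2 and 94.9 FPKM in Treat_MII. Its maturation change of -2.75 ± 0.54 passed the test (limma adjusted p = 0.0397) and lost it in 10 of 15 alternatives, with adjusted p between 0.0260 and 0.178. Pus7, a pseudouridine synthase, had no read in WT_FGO and 12 reads in each Treat_MII library. Its Treat_MII mean was 1.33-fold the 3-read level in WT_FGO (limma adjusted p = 0.0486 for the log2 change). It was called in 7 of 15 alternatives, and its limma adjusted p was 0.0942 with the replicate block. Nsun2 was at 9.34 to 20.5 FPKM in WT_FGO, against 11.4 to 13.3 FPKM in WT_MII. No gene of the list passed the test between Treat_MII and WT_MII, with none at an unadjusted limma p under 0.05.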
